A study of Mus musculus with 24 samples.

Results

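The 9 genes followed here make, package, take up or break down catecholamines, and their RNA was measured across 3 lines of a mouse neuroblastoma in 2 media. They were Th, Ddc, Dbh, Pnmt, Gch1, Slc18a1, Slc18a2, Slc6a2 and Maoa, found as the probes that carry those gene names on the array. The array held 13 such probes, among 27597 gene names in all. Of the 9 genes, 8 were tested, because Slc6a2 was not well above background in any of the 24 samples.

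The cells were N1E-115, a mouse neuroblastoma line of sympathetic origin that is used as a model of catecholamine neurons. RNA was measured on 12 Agilent 2-colour arrays, each holding 2 samples, on 3 slides. The untransfected line (WT) was set beside a line with transcobalamin fused ahead of oleosin (TO), which binds cobalamin strongly, and a line with the fusion in the opposite order (OT), with no detectable cobalamin binding. Transcobalamin carries cobalamin (vitamin B12) in blood, and oleosin is an anchor protein of lipid droplets. Each line was grown in proliferation medium with 10% serum (p) and in differentiation medium with 2.5% serum and 1.25% DMSO (d), which gave 6 groups of 4 samples, with 2 samples in each dye. Every group holds 1 pair of samples of opposite dye whose description codes share a number, which may be the same RNA or culture, so that a group may hold 3 independent samples. WT carries no construct, so a difference between WT and a fusion line includes the transfection and the selection of the line. Nothing in the labels says whether a line came from more than 1 clone or the samples from separate cultures, so the p-values take in only the scatter among the samples at hand, which may be technical.

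Catecholamines are made from tyrosine in a chain of enzymes. Tyrosine hydroxylase (Th) makes L-DOPA with the cofactor tetrahydrobiopterin, whose own synthesis starts with GTP cyclohydrolase (Gch1). Aromatic amino acid decarboxylase (Ddc) turns L-DOPA into dopamine, dopamine beta-hydroxylase (Dbh) turns dopamine into noradrenaline inside vesicles, and Pnmt turns noradrenaline into adrenaline. The vesicular monoamine transporters Slc18a1 (VMAT1, typical of neuroendocrine cells) and Slc18a2 (VMAT2, typical of neurons) load the vesicles, the noradrenaline transporter Slc6a2 recovers released transmitter, and monoamine oxidase A (Maoa) degrades it in the cytosol. Sympathetic neurons are known for making noradrenaline and, as a rule, little adrenaline.

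Th, Ddc, Dbh and Slc18a2 were the members whose response to differentiation medium was called larger in OT than in both other lines, so the sequences upstream of their start sites are shown here. RefSeq promoters on GRCm38.p6 were matched by symbol for 6 of the 9 genes, with 2 start sites for Ddc. Capitals mark matches on either strand to the cAMP response element TGACGTCA, the AP-1 site TGANTCA, the E-box CACGTG and the homeodomain core ATTA, all searched from 250 bases before to 50 after each start and free to overlap each other.
Th, chr7:142899996-142900245, minus strand: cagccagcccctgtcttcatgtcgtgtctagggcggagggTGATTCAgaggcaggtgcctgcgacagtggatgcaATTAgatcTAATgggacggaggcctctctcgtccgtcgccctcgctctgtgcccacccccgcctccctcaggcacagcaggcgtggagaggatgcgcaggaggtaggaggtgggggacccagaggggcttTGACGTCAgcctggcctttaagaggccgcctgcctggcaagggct
Ddc, upstream start, chr11:11898145-11898394, minus strand: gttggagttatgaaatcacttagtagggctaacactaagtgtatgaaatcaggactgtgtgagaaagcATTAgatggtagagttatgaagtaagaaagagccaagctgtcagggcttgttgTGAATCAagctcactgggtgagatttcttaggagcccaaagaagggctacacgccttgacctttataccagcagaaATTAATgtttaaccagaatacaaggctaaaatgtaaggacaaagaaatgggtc
Ddc, downstream start, chr11:11890409-11890658, minus strand: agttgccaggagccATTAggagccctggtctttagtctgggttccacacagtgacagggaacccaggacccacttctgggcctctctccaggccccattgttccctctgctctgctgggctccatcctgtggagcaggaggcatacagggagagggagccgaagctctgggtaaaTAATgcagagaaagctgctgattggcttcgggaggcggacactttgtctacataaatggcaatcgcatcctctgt
Dbh, chr2:27165257-27165506, plus strand: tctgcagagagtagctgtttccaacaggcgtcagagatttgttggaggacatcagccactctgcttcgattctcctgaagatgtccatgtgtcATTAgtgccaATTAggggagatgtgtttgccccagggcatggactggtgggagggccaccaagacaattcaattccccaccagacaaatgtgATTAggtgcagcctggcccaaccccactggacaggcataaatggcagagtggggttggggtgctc
Slc18a2, chr19:59260628-59260877, plus strand: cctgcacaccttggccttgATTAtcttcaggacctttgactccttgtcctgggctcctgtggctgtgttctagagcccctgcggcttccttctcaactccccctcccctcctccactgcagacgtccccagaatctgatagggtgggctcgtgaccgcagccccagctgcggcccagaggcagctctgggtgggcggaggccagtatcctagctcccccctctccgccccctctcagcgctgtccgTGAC
The cAMP response element was matched 45 bases before the Th start and, for Slc18a2, from 4 bases before the start across it, so that only its first bases are printed. It occurred in 1.79% of all 32851 RefSeq promoter windows of that length. The AP-1 letters were matched 210 bases before the Th start and 129 bases before the upstream Ddc start, against 7.81% of all windows. The ATTA core was matched in each of the 5 windows, 3 times each in Dbh and at the upstream Ddc start, and in 58% of all windows. The E-box letters, present in 7.15% of all windows, were matched in none of them. These matches describe letters and are not evidence of a bound factor.

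Of the spots of a sample, 54.3 to 65.9% were well above background, and no spot was saturated. Values below are log2 intensities of the probe with the highest mean for each gene, after background correction and normalization. They are set against each other within a probe, never between probes. limma tested 16240 genes, and a call means an adjusted p (Benjamini-Hochberg, over those genes) below 0.05. Differences come from the fitted model, with its standard error (SE), and can differ slightly from the difference between printed means. WT-p replicates 1 and 3, whose description codes share the number 1, resembled OT-p about as much as their own group, with mean correlations across genes of 0.77 and 0.72 to OT-p and 0.74 and 0.73 to the other WT-p samples. Results that rest on WT-p are therefore also given without these 2 samples where the call changes. In these cultures a change in a level per sample can come from fewer cells of a kind or from less RNA per cell, which cannot be told apart.

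The identity of the cells was checked with marker lists. All 10 sympathoadrenal markers, among them Phox2a, Hand2 and Gata3, were well above background in all 24 samples. Of 8 markers of midbrain dopamine neurons, 3 passed the filter, while Lmx1a, Foxa2 and En1 were above background in no sample and the dopamine transporter Slc6a3 in 2. No marker of cholinergic neurons (0 of 3) or of blood and endothelium (0 of 4 on the array) passed, against 5 of 6 glial and 4 of 6 fibroblast markers and 2 of 3 serotonergic ones. The cholinergic marker Chat was still well above background in 18 of 24 samples, though not in all samples of any group. Slc18a3 was so in 3 samples, and Cd68 and Pecam1 in 6 each. The glial list had its highest mean in WT-d (7.49 to 7.63 over samples, against 6.97 to 7.50 elsewhere). The sympathoadrenal list had its highest mean in OT-d, at 12.12 to 12.19 over the samples, against 11.48 to 12 in the other groups. The mean of the midbrain list lay between 6.59 and 6.79 in all groups. The part of these shifts in the results on single genes was not tested.

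Th RNA was highest in OT cells in differentiation medium. The Th probe (mm8 chr7:142703402-142703461), printed in 10 spots, read 12.74, 12.84, 12.97 and 12.97 in the 4 OT-d samples. In TO-d it read 12.25, 12.37, 12.19 and 12.34, and in WT-d 12.31, 12.34, 12.24 and 12.15. Every OT-d sample lay above every sample of the other 5 groups, while TO-d and WT-d overlapped. In proliferation medium the lines were close together, at 11.81, 12, 11.86 and 12.24 in WT-p, 12, 12.03, 11.85 and 11.88 in TO-p, and 11.70, 11.86, 11.83 and 11.77 in OT-p, and these groups overlapped. The rise from p to d was 2.11-fold in OT (log2 difference 1.08, SE 0.0782, adjusted p = 2.6e-11), 1.22-fold in WT (adjusted p = 0.00606) and 1.21-fold in TO (adjusted p = 0.00666). The OT response exceeded that of WT by 0.79 (95% interval 0.56 to 1.02, adjusted p = 1.14e-05) and exceeded that of TO, whose difference from OT was -0.80 (-1.04 to -0.55, adjusted p = 1.52e-05). The responses of TO and WT differed by -0.01 (-0.26 to 0.24), which did not pass the test. The WT rise was not called without WT-p replicates 1 and 3 (0.13, adjusted p = 0.216) or with loess alone (0.08, adjusted p = 0.599), and the TO rise was not called without TO-d replicate 4 (0.23, adjusted p = 0.0718).

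Ddc had the largest difference of all tested members between OT and each of the other lines, in both media. Its probe with the higher signal (mm8 chr11:11715320-11715379) read 11.21, 11.53, 11.58 and 11.47 in OT-d and 10.32, 10.27, 10.24 and 10.09 in OT-p. The WT-p samples read 8.74, 8.58, 8.64 and 8.93 and the WT-d samples 8.24, 8.51, 8.18 and 8.21. The TO-p samples were the lowest, at 7.67, 7.63, 7.88 and 7.78, and the TO-d samples read 8.32, 8.32, 7.90 and 8.18. The order was OT-d, OT-p, WT-p, then WT-d and TO-d, which overlapped, and last TO-p. In differentiation medium Ddc was 8.75-fold higher in OT than in WT (log2 difference 3.13, SE 0.104, adjusted p = 1.09e-15), and TO did not differ from WT by a called amount (-0.08, 95% interval -0.33 to 0.16). In proliferation medium OT was 2.84-fold above WT (adjusted p = 3.32e-11) and TO was 1.98-fold below it (adjusted p = 8.39e-08). The TO difference was not seen on the second Ddc probe (0.11, adjusted p over probes = 0.433), and it was not called with the outlier local backgrounds kept (-0.27, adjusted p = 0.676).

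The medium moved Ddc in opposite directions in the lines. It fell by 0.47 in WT (1.38-fold, adjusted p = 0.000759), rose by 0.43 in TO (1.35-fold, adjusted p = 0.00121) and rose by 1.15 in OT (2.23-fold, adjusted p = 4.48e-10). The response of OT differed from that of WT by 1.62 (95% interval 1.33 to 1.92, adjusted p = 1.96e-08), and that of TO from that of WT by 0.90 (0.58 to 1.22, adjusted p = 0.000133). The second Ddc probe (mm8 chr11:11776262-11776321) was dimmer, well above background in 18 of 24 samples. On it OT-d exceeded WT-d 3.72-fold and OT-p exceeded WT-p 2.33-fold, and the OT rise with medium was 1.80-fold (adjusted p over 24349 probes = 7.58e-08). The WT fall and the TO rise were not seen there: the differences were 0.18 (adjusted p = 0.168) and -0.11 (adjusted p = 0.434). With the mean of both probes neither was called (-0.15, adjusted p = 0.232, and 0.16, adjusted p = 0.185).

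Dbh stood higher in both fusion lines than in WT, in both media. The single probe (mm8 chr2:27003570-27003629) read 12.58, 12.57, 12.39 and 12.66 in TO-p and 12.49, 12.60, 12.61 and 12.45 in OT-p, against 12.02, 11.57, 11.96 and 11.86 in WT-p. No WT-p sample reached the lowest sample of either fusion line. The excess over WT-p was 1.62-fold in TO-p (adjusted p = 2.09e-05) and 1.59-fold in OT-p (adjusted p = 9.69e-06), and TO-p and OT-p differed by 0.03 (95% interval -0.20 to 0.25). In differentiation medium the samples read 11.88, 11.75, 11.47 and 11.82 in WT-d, 12.31, 12.50, 12.18 and 12.55 in TO-d, and 12.95, 13.15, 13.31 and 13.32 in OT-d. None of these 3 groups overlapped, with OT-d the highest. Dbh rose 1.57-fold with the medium in OT (log2 difference 0.65, SE 0.105, adjusted p = 7.91e-06), while the changes in WT (-0.13, adjusted p = 0.348) and TO (-0.16, adjusted p = 0.247) were not called. With loess alone the WT change was called (-0.35, adjusted p = 0.0495). The OT response differed from that of WT by 0.78 (adjusted p = 0.00033).

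**Figure D1:**
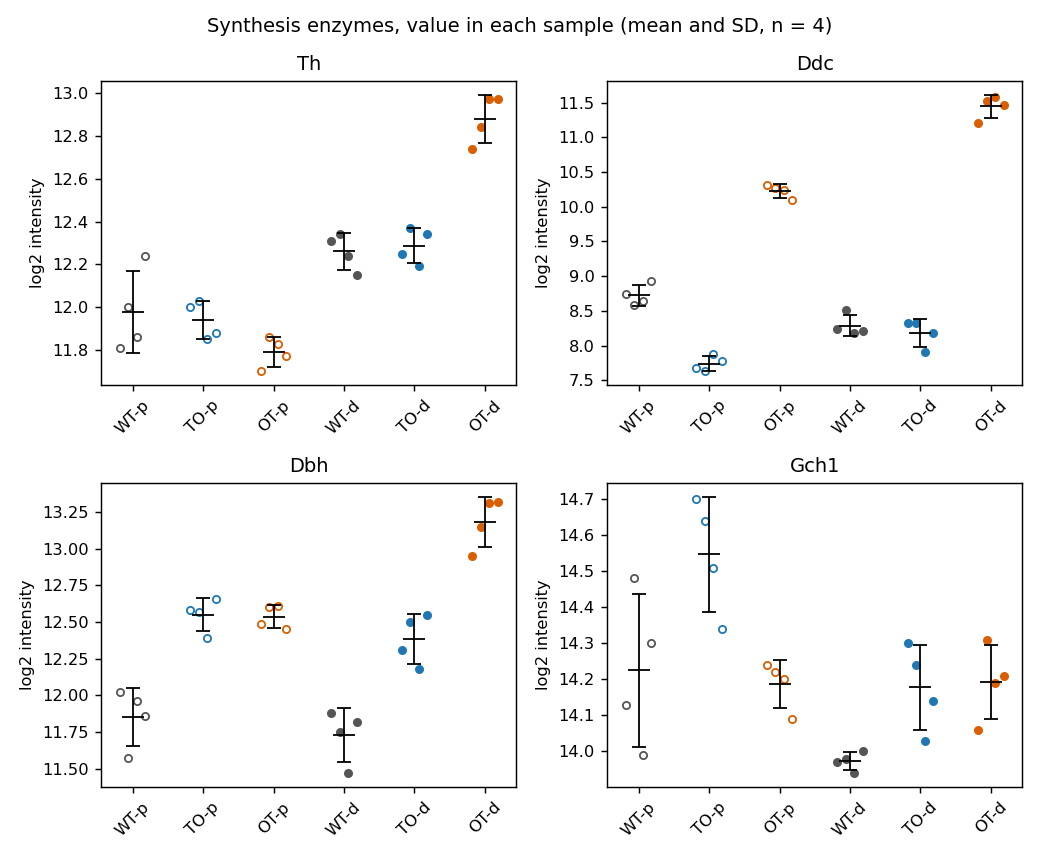
Log2 intensity (y axis) of Th, Ddc, Dbh and Gch1 in the 6 groups (x axis), with 1 circle per sample, open in proliferation and filled in differentiation medium, and black bars for the mean and SD of 4 samples. OT-d lies above all other groups for Th (mean 12.88), Ddc (11.45) and Dbh (13.18), and for Gch1 the group means span 13.97 to 14.55.

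Gch1 gave different answers on its 2 probes. The brighter probe (mm8 chr14:46091099-46091158) varied little. It read 14.70, 14.64, 14.51 and 14.34 in TO-p, 14.13, 14.48, 13.99 and 14.30 in WT-p, and 14.24, 14.22, 14.20 and 14.09 in OT-p. The d samples read 14.30, 14.24, 14.03 and 14.14 in TO, 14.06, 14.31, 14.19 and 14.21 in OT, and 13.97, 13.98, 13.94 and 14 in WT. Only WT-d stood apart from its neighbour in the order of means. On this probe Gch1 fell 1.33-fold with the medium in TO (adjusted p = 0.000381) and 1.17-fold in WT (-0.23, adjusted p = 0.0358), and did not change by a called amount in OT (0.06, 95% interval -0.12 to 0.23). The WT fall was not called with the processed signals (-0.16, adjusted p = 0.171), the series table, quantile normalization or no filter, nor without WT-d replicate 1 or 2 or WT-p replicate 2 or 4 (adjusted p of 0.0581 to 0.173).

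The second Gch1 probe (mm8 chr14:46075999-46076058) moved with the medium in the other direction. It read 10.83, 10.89, 10.85 and 10.88 in OT-p and 12.50, 12.76, 12.92 and 12.78 in OT-d, a 3.66-fold rise (log2 difference 1.87, SE 0.148, adjusted p = 1.07e-10). In WT it rose 1.85-fold (adjusted p = 6.47e-05), from 11.05, 11.97, 11.09 and 11.63 to 11.93, 12.50, 12.45 and 12.47. Within WT-p, replicates 1 and 3 were the low pair. In TO it read 12.03, 12.27, 12.58 and 12.21 in p and 12.47, 12.58, 12.51 and 12.55 in d, a difference of 0.18 that was not called (adjusted p = 0.352). The OT response exceeded that of WT by 0.99 on this probe (adjusted p = 0.000966). With the mean of both probes in place of the brighter one, the WT change turned to a rise of 0.33 (adjusted p = 0.0239), the OT change was called at 0.97 and the TO change was not called (-0.11). The files assign both probes to the same transcript, and which of them reads the total Gch1 RNA was not tested. The brighter probe's calls also depended on few samples: its excess in TO-p over WT-p (1.30-fold, adjusted p = 0.00115) was not called without WT-p replicates 1 and 3 (0.18, adjusted p = 0.183). On the second probe TO-p exceeded WT-p 1.81-fold (adjusted p over probes = 0.000111) and OT-p 2.81-fold (adjusted p over probes = 3.26e-08). There OT-p was 1.55-fold below WT-p (adjusted p over probes = 0.000825), a difference not called on the brighter probe (-0.04, adjusted p = 0.74). The second probe alone was not tested without WT-p replicates 1 and 3.

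**Figure D2:**
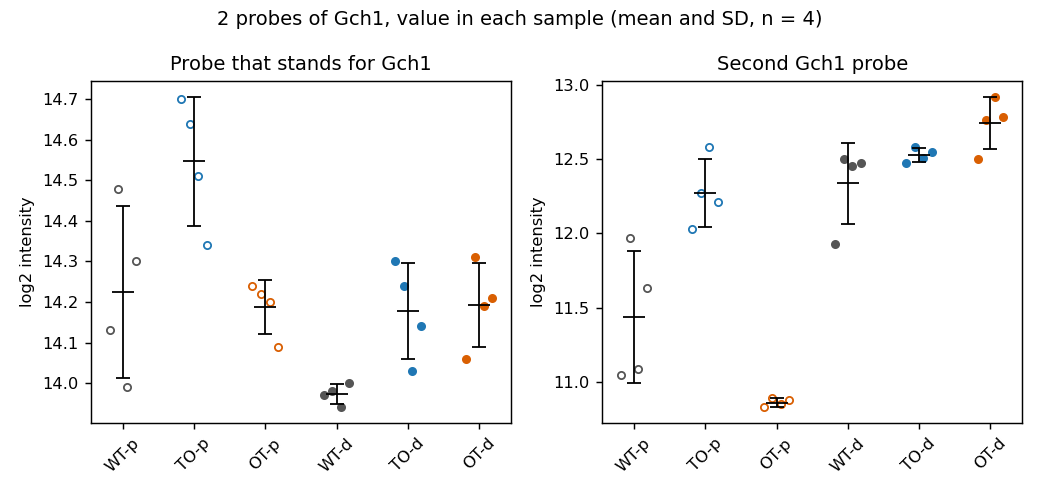
Log2 intensity (y axis) of the 2 Gch1 probes in the 6 groups (x axis), with 1 circle per sample, open in proliferation and filled in differentiation medium, and black bars for the mean and SD of 4 samples. The probe that stands for the gene is level in OT (mean 14.19 in both media), while the second probe rises there from 10.86 to 12.74.

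Pnmt gave a dim signal, though well above background in all 24 samples. The probe (mm8 chr11:98203574-98203633) read 6.77, 7.56, 6.84 and 6.83 in WT-d and 7.18, 7.09, 6.72 and 7.05 in OT-d. All TO-d samples lay between 6.56 and 6.78, and the p samples of the 3 lines between 6.46 and 6.79. The rise in WT (0.43, adjusted p = 0.0121) and the lower level of TO-d than WT-d (-0.46, adjusted p = 0.0188) rested on WT-d replicate 2, at 7.56. Without it the values were 0.14 (adjusted p = 0.218) and -0.16 (adjusted p = 0.21). In OT the difference of 0.29 between media just missed the threshold (adjusted p = 0.0517). It was called under quantile normalization (0.31, adjusted p = 0.0395), the processed signals (0.71, adjusted p = 0.0335), the series table, an offset of 16 and no dye term. It was also called with samples of one code number averaged, and without OT-d replicate 3 or OT-p replicate 1 or 4. TO-d against OT-d (-0.31, adjusted p = 0.0901) was called with the processed signals, the series table or that averaging, and without OT-d replicate 3.

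Slc18a1, the vesicular transporter VMAT1, rose with differentiation medium in all 3 lines. Its brighter probe (mm8 chr8:71967141-71967200) read 7, 7.28, 7.10 and 7.29 in WT-p and 9.24, 9.65, 9.22 and 8.79 in WT-d. In TO it went from 8.83, 8.51, 8.77 and 8.17 to 10.88, 10.84, 10.49 and 10.76, and in OT from 6.70, 6.61, 6.84 and 6.68 to 9.15, 9.25, 9.37 and 9.05. The samples of the 2 media did not overlap in any line. The OT-p and WT-p samples were dim, though well above background, and the size of the rise varied with the processing. Over the alternatives the log2 rise ran from 1.02 to 3 in WT, 1.16 to 2.44 in TO and 1.19 to 3.63 in OT, called in each. The rise was 4.23-fold in WT (log2 difference 2.08, SE 0.146, adjusted p = 2.69e-11), 4.53-fold in TO (2.18, SE 0.137, adjusted p = 6.65e-12) and 5.37-fold in OT (2.43, SE 0.13, adjusted p = 1.49e-13). The TO response differed from that of OT by -0.25 (95% interval -0.66 to 0.16, adjusted p = 0.348), and the response of OT differed from that of WT by 0.34 (-0.04 to 0.73, adjusted p = 0.161). The first of these was called with the software's processed signals (-1.19, adjusted p = 0.00126) and with a normexp offset of 16 (-0.61, adjusted p = 0.0304).

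TO cells held more Slc18a1 RNA than the other lines in both media. TO-p exceeded WT-p 2.73-fold (adjusted p = 1.52e-08) and OT-p 3.48-fold (adjusted p = 2.56e-10), and TO-d exceeded WT-d 2.92-fold (adjusted p = 6.71e-08) and OT-d 2.93-fold (adjusted p = 1.57e-08). No sample of TO overlapped one of another line in the same medium. Over the alternatives the log2 excess of TO-p ran from 0.67 to 2.14 over WT-p and from 0.87 to 2.82 over OT-p, called in each. OT-d and WT-d differed by -0.01 (95% interval -0.29 to 0.28). OT-p was 1.28-fold below WT-p (-0.35, adjusted p = 0.0231), a call lost on leaving out any of 4 single samples, WT-p replicates 2 and 4 and OT-p replicates 2 and 4, with adjusted p of 0.0754 to 0.108. A second probe for Slc18a1, assigned to another transcript, was well above background in no sample.

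Slc18a2, the neuronal transporter VMAT2, also rose with the medium in every line, and in differentiation medium OT was the highest line and TO the lowest. The probe (mm8 chr19:59348862-59348921) read 9.69, 9.71, 9.60 and 9.65 in OT-p and 11.51, 11.17, 11.33 and 11.18 in OT-d. In WT it went from 9.50, 10.12, 9.55 and 9.80 to 10.70, 10.54, 10.72 and 10.87, and in TO from 9.44, 9.40, 9.71 and 9.28 to 9.90, 9.89, 9.92 and 9.86. In differentiation medium the 3 lines did not overlap, whereas the p groups overlapped. The rise was 3.16-fold in OT (log2 difference 1.66, SE 0.101, adjusted p = 1.23e-12), 1.92-fold in WT (adjusted p = 1.53e-07) and 1.33-fold in TO (0.41, adjusted p = 0.00211). The response of TO differed from that of OT by -1.25 (95% interval -1.56 to -0.93, adjusted p = 1.57e-06), and the response of OT exceeded that of WT by 0.72 (0.42 to 1.02, adjusted p = 0.000494).

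The TO response of Slc18a2 was below that of WT by a smaller and less stable amount (-0.53, adjusted p = 0.0118). Without WT-p replicates 1 and 3 that difference was -0.27 (adjusted p = 0.213). The second Slc18a2 probe gave rises of 2.76-fold in OT, 1.70-fold in WT and 1.21-fold in TO, the last not called (adjusted p over probes = 0.0679). TO-p was 1.21-fold below WT-p on the first probe (adjusted p = 0.0393), and this call was lost under most alternatives, for example with no dye term (adjusted p = 0.051).

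Slc6a2, the noradrenaline transporter, was not well above background in any sample. Its probe (mm8 chr8:95890395-95890454) read between 5.82 and 6.19 over the 24 samples, and no fold is given. The dopamine transporter Slc6a3 did not pass the filter either, and the serotonin transporter Slc6a4 was above background in no sample.

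Maoa fell with differentiation medium in all 3 lines. Its probe (mm8 chrX:15842476-15842535) read 11.54, 11.40, 11.63 and 11.43 in WT-p and 10.31, 10.58, 10.48 and 10.56 in WT-d. In TO it went from 10.82, 10.80, 10.94 and 10.86 to 9.94, 9.95, 9.99 and 9.87, and in OT from 12.27, 12.12, 12.11 and 12.03 to 11.25, 11.24, 11.15 and 11.20. All 6 groups were apart, in the order OT-p, WT-p, OT-d, TO-p, WT-d and TO-d. The fall was 2.04-fold in WT (-1.03, SE 0.0717, adjusted p = 2.61e-11), 1.85-fold in TO (-0.89, SE 0.0674, adjusted p = 1.59e-10) and 1.93-fold in OT (-0.95, SE 0.0641, adjusted p = 7.78e-12). The responses differed by 0.05 between TO and OT (95% interval -0.15 to 0.26), by 0.13 between TO and WT (-0.07 to 0.34) and by 0.08 between OT and WT (-0.11 to 0.27), none of them called. With loess alone the difference between TO and WT was called, at 0.45 (adjusted p = 0.034).

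The lines kept their order for Maoa in both media. OT was above WT 1.53-fold in p (adjusted p = 3.73e-08) and 1.62-fold in d (adjusted p = 1.86e-08). TO was below WT 1.60-fold in p (adjusted p = 3.14e-08) and 1.46-fold in d (adjusted p = 5.65e-06). The other monoamine oxidase, Maob, was well above background in no sample.

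**Figure D3:**
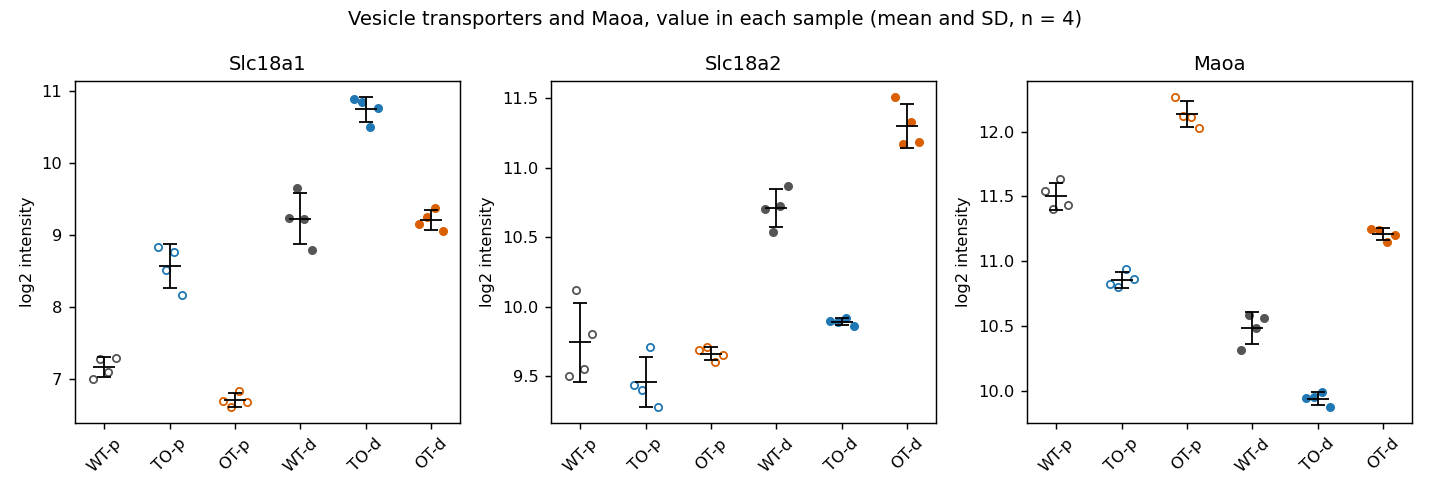
Log2 intensity (y axis) of Slc18a1, Slc18a2 and Maoa in the 6 groups (x axis), with 1 circle per sample, open in proliferation and filled in differentiation medium, and black bars for the mean and SD of 4 samples. TO-d is the highest group for Slc18a1 (mean 10.74) and the lowest d group for Slc18a2 (9.89), and the 6 Maoa groups do not overlap (9.94 to 12.13).

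Counted over the 8 tested members, differentiation medium raised 4 and lowered 3 in WT, raised 4 and lowered 2 in TO, and raised 5 and lowered 1 in OT. With loess alone the WT split was 3 higher and 4 lower. Under 1 or more alternatives the WT calls of Th, Ddc, Pnmt and Gch1 were lost, and so were the TO calls of Th, Ddc, Gch1 and Slc18a2. In OT no call was lost, and Pnmt and Gch1 were called as well under some alternatives. The background was high in each case: among all genes tested, 35.8% were called higher and 30.8% lower in WT, 26.5% and 25.8% in TO, and 36.4% and 31% in OT. Loess alone, without scaling between arrays, turned the split over all genes in WT to 3717 higher and 5950 lower. The median log2 difference of the members was 0.86 in OT, where that of all genes was 0.04, and 0.08 in WT and 0.13 in TO, where those of all genes were 0.06 and 0. Slc18a1, Slc18a2 and Th rose in all 3 lines, and Maoa fell in all 3.

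**Figure D4:**
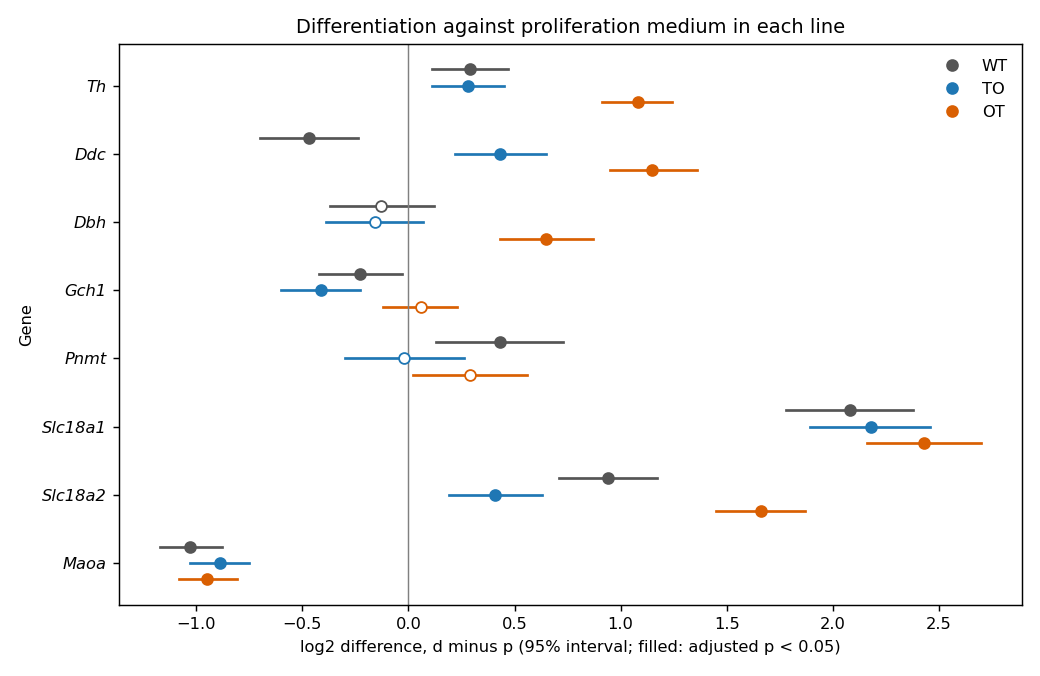
Log2 difference between differentiation and proliferation medium (x axis) of the 8 tested genes (y axis) in WT, TO and OT, with 95% intervals, filled where called. The 3 lines span 2.08 to 2.43 for Slc18a1 and -1.03 to -0.89 for Maoa, with overlapping intervals, and OT lies to the right of both others for Th, Ddc, Dbh and Slc18a2.

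The difference between 2 lines in their response to the medium was called for 5 of the 8 members between TO and OT, all with the smaller value in TO, for 2 between TO and WT (1 larger and 1 smaller in TO) and for 4 between OT and WT, all larger in OT. Without WT-p replicates 1 and 3 a further member, Gch1, was called between OT and WT (0.47, adjusted p = 0.00205). The split between TO and WT was 2 larger and 0 smaller with loess alone, and 1 larger and 2 smaller with the processed signals. The shares over all genes were 40.2%, 36.5% and 34.9%, in either direction. Split by direction, all genes gave 2818 larger and 3715 smaller in TO than in OT, 2857 and 3065 in TO than in WT, and 3309 and 2355 in OT than in WT. With loess alone these splits were 3064 and 2597, 4394 and 1092, and 3959 and 981. The members' median was -0.60 between TO and OT, against -0.03 over all genes, and 0.53 between OT and WT, against 0. These 3 differences share groups and are not independent of each other.

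In differentiation medium OT exceeded WT for 6 members and was lower for none, against 26.6% and 25.1% of all genes. Of these, the Gch1 call (0.25, adjusted p = 0.0221) was lost with the processed signals (0.14, adjusted p = 0.226), the series table, the outlier backgrounds kept, no dye term or samples of one code number averaged, and without WT-d replicate 2 or OT-d replicate 2, 3 or 4. TO exceeded OT for 1 member, Slc18a1, and was lower for 5, Th, Ddc, Dbh, Slc18a2 and Maoa, against 18.9% and 20.8% of all genes. The Th difference was 1.56-fold (adjusted p = 3.22e-06), that of Ddc 9.27-fold (adjusted p = 7.75e-16), that of Dbh 1.72-fold, that of Slc18a2 2.66-fold and that of Maoa 2.36-fold. On the second, dimmer Ddc probe the difference between TO-d and OT-d was smaller, at 4.19-fold (adjusted p over probes = 1.86e-12). TO exceeded WT for 2 members, Dbh and Slc18a1, and was lower for 3, Pnmt, Slc18a2 and Maoa, against 22.9% and 23.6%. With loess alone the splits over all genes were 4422 higher and 2754 lower for OT against WT, 3393 and 1730 for TO against OT and 4621 and 1569 for TO against WT, while those of the members were as given. These comparisons share the samples of OT-d, TO-d and WT-d between them and are not independent of each other.

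**Figure D5:**
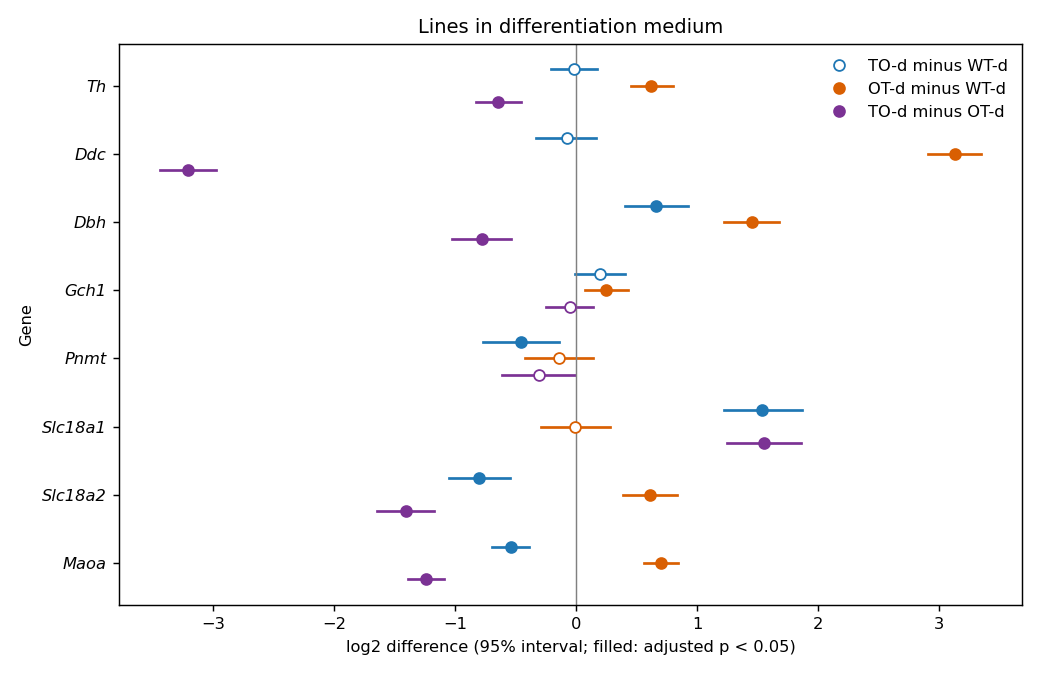
Log2 difference between lines in differentiation medium (x axis) of the 8 tested genes (y axis), with 95% intervals, filled where called. Ddc spans the widest range, from -3.21 (TO-d minus OT-d) to 3.13 (OT-d minus WT-d), and Slc18a1 is higher in TO by 1.54 to 1.55 with no called difference between OT and WT.

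In proliferation medium TO exceeded OT for Gch1 and Slc18a1 and was lower for Ddc and Maoa, so 2 members were higher and 2 lower, against 29.9% and 26.3% of all genes. The median of the members and of all genes was 0.01 in that comparison. TO exceeded WT for 3 members and was lower for 3, against 19.1% and 15.9%. OT exceeded WT for 3 members, Ddc, Dbh and Maoa, and was lower for 1, Slc18a1, against 20.6% and 24%. With loess alone the splits over all genes were 2016 higher and 2936 lower for TO against WT and 2043 and 4440 for OT against WT, while those of the members were as given. Without WT-p replicates 1 and 3, OT and WT differed for 7 members in place of 4: Th (-0.32, adjusted p = 0.00201), Gch1 (-0.22, adjusted p = 0.0298) and Slc18a2 (-0.32, adjusted p = 0.0109) were then lower in OT-p.

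A list of 38 further genes of catecholamine and monoamine handling was read out beside the members, and 25 of them were tested. With differentiation medium, 6 were called higher and 10 lower in WT, 5 higher and 8 lower in TO, and 10 higher and 8 lower in OT. The shares of all genes were 35.8% and 30.8% in WT, 26.5% and 25.8% in TO, and 36.4% and 31% in OT. The median log2 difference of the list was -0.07 in WT, -0.11 in TO and 0.01 in OT. Between lines in differentiation medium, 4 were higher and 6 lower in TO than in OT, 8 higher and 4 lower in TO than in WT, and 10 higher and 5 lower in OT than in WT, against 18.9% and 20.8%, 22.9% and 23.6%, and 26.6% and 25.1% of all genes. In proliferation medium the counts were 8 and 6 for TO against OT, 5 and 4 for TO against WT, and 5 and 8 for OT against WT, beside 29.9% and 26.3%, 19.1% and 15.9%, and 20.6% and 24% of all genes. Loess alone shifted the split of this list to 3 higher and 11 lower for the medium in WT, 10 and 3 for OT-d against WT-d, 2 and 4 for TO-p against WT-p, and 3 and 8 for OT-p against WT-p, where the processed signals and quantile normalization each gave 5 and 5.

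Cyb561, the cytochrome that brings electrons into the vesicle for Dbh, had the largest difference of the list. Its mean was 10.87 ± 0.126 (SD, n = 4) in OT-p and 13.20 ± 0.125 in OT-d, a 5.22-fold rise (adjusted p = 5.74e-15). In WT it rose 1.53-fold (adjusted p = 9.4e-05), from 12.10 ± 0.297 to 12.67 ± 0.0274, and in TO its means were 12.40 ± 0.185 and 12.67 ± 0.0716, with no call. In proliferation medium TO exceeded OT 3.08-fold (adjusted p = 4.99e-11), and in differentiation medium TO was 1.48-fold below OT (adjusted p = 0.000594).

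The tetrahydrobiopterin genes did not move in a common direction with the medium. Qdpr, which recycles the used cofactor, rose with the medium 1.96-fold in WT, 2.30-fold in TO and 2.19-fold in OT. Of the 7 tetrahydrobiopterin genes, 1 rose and 4 fell in WT, 2 rose and 2 fell in TO, and 3 rose and 3 fell in OT. Gchfr, the protein through which the end product holds Gch1 back, differed 1.78-fold between TO-d and OT-d, with more in TO (adjusted p = 7.11e-09), and 1.81-fold between OT-d and WT-d, with less in OT (adjusted p = 1.3e-09). Pts, which makes the intermediate after Gch1, was 1.94-fold higher in TO-d (adjusted p = 1.48e-06) and 2.03-fold higher in OT-d (adjusted p = 5.55e-08) than in WT-d.

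Among the breakdown genes, Rnls (renalase) fell 2.75-fold with the medium in WT, 1.51-fold in TO and 1.46-fold in OT, and Akr1b3, an aldose reductase, fell 2.36-fold in WT, 1.30-fold in TO and 2.73-fold in OT. Rnls was dim in WT-d (mean 6.59) and TO-d (mean 7), and was well above background in 23 of the 24 samples. How far the dim signal changes the size of its fall was not tested. Tph1, a hydroxylase of the serotonin branch but not the only one, also feeds its product to Ddc. It fell 2.38-fold in WT, 3.75-fold in TO and 2.88-fold in OT. Of 14 receptors for catecholamines, 7 were tested, and Drd4, a dopamine receptor, fell 1.85-fold in WT, 2.58-fold in TO and 1.36-fold in OT. In differentiation medium the Drd4 level of TO lay 2.16-fold under that of WT (adjusted p = 1.25e-07).

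The genes with the pattern most like each member over the 24 samples were found by Pearson's r of the log2 values, as a description without a test, since all points share the 6 groups and the arrays. For Th they were Trabd (0.958), Fez2 (0.956) and Pcdhb16 (0.948). For Ddc they were Cdk14 (0.968), Plxnd1 (0.962) and Olfml1 (0.955). For Slc18a1 they were Irgm2 (0.978), Tmem38a and Ap3m2 (0.976 each), and for Slc18a2 Socs6 (0.975), Smarca1 (0.956) and Trim24 (0.953). For Maoa they were Psip1 (0.979), Rpap3 (0.969) and Sirt1 (0.961). The best matches were weaker for Dbh, with Chst13 (0.871), Septin3 (0.868) and Camk4 (0.867), and for Gch1, with Coch (0.849), Myh10 (0.832) and then Ctnna1. For the dim Pnmt they were Adat1 (0.941), Spen (0.935) and Hamp2 (0.929). No other member was among the 3 nearest genes of a member.

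Slides were compared as batches. Slide 1 held no OT-d sample and slide 2 no WT-d sample. OT-d could be compared with TO-d and with OT-p within slides 2 and 3. With WT-d it could be compared only within slide 3, as 2 samples against 1, WT-d replicate 2. Line and slide are therefore largely mixed in the comparison of OT-d with WT-d. Over the 168 differences that could be formed within a slide, none of the called differences changed sign, and 45 moved by more than the larger SD of the 2 groups. The Ddc difference between TO-d and OT-d was -3.26 within slide 2 and -3.35 within slide 3. That between OT-d and WT-d was 3.01 within slide 3.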

How the data were processed

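The scanner tables deposited by the authors come from Agilent Feature Extraction, version 10.5.1.1 per the file headers, and hold intensity per spot and dye: mean signal, median signal and local background. The deposited series table holds linear intensity. Each of its columns correlated at 0.9988 or above with the median signal of that sample, and it was used as an alternative.

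In R 4.3.3 with limma 3.58.1, mean signals were corrected by normexp (offset 50). The 1.81% of local backgrounds that the software marked as outliers (up to 525087) were first replaced by their sample's median. This choice was made after the values were seen, because normexp could not be fitted well to 1 array without it. Loess within arrays (1639 control spots removed) and Aquantile between arrays gave log2 values, of which 0.294% were left out as marked outliers. Each gene was read on its probe of highest mean and was tested where that probe was well above background throughout 1 or more groups. limma fitted the dyes as separate channels (correlation 0.452 within a spot, from genes with no missing value) with 6 group means and a dye term. In a simulation of OT-d against OT-p over 16240 genes, 50% of 50 genes changed 1.25-fold and 94% of 50 changed 1.5-fold were called. Only 50 genes were changed at each fold used there, whereas in the data 36.4% of all genes were called higher and 31% lower. The adjusted p depends on that share, so these rates do not carry over to the real comparison.

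All 9 members are named. Other genes come from the list of 38, the called ones with the largest differences in a comparison, up to 6, with their values in other lines beside them. A gene that this rule selects is not reported here. The members and lists were chosen with earlier results of these data known. Replicate numbers were not used to pair the samples in the main fit. Alternatives were the processed signals less their 75th percentile, the series table, quantile, loess alone, an offset of 16, no filter, the mean of a gene's probes, no dye term, slide, a replicate block, averaging the 2 samples of a group that share a code number, and leaving out each sample.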

Additional observations from a re-analysis of the deposited data

Results flagged for a closer look

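One of 48 sets of 4 values of a member in a group held a sample far from the others: Pnmt in WT-d, with replicate 2 at 7.56 and the others at 6.77 to 6.84. Chance gives about 1 such set in 20. The response to the medium differed between lines for 11 of 24 tests on members. Over all genes, 40.2% were called between TO and OT, 36.5% between TO and WT and 34.9% between OT and WT. TO had a smaller response than OT for Th (-0.80), Ddc (-0.72), Dbh (-0.81), Gch1 (-0.47) and Slc18a2 (-1.25). Against WT, the response of TO was larger for Ddc (0.90) and smaller for Slc18a2 (-0.53). OT had a larger response than WT for Th (0.79), Ddc (1.62), Dbh (0.78) and Slc18a2 (0.72). The Gch1 difference between TO and OT was -1.69 on the second probe (adjusted p over probes = 4.83e-06), and was not called with loess alone (-0.43, adjusted p = 0.0615) or with samples of one code number averaged (-0.35, adjusted p = 0.0926). Of these tests, the Ddc difference between TO and WT was not seen on the second Ddc probe (-0.28, adjusted p over probes = 0.159).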

How the results depend on the processing

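The number of members called stayed within 1.5 times the value given, in 10 of the 12 comparisons, under every alternative and with each sample left out. The exceptions were OT-p against WT-p, with 7 called without WT-p replicates 1 and 3, and the medium response of TO against that of WT, with 1 called without them, 1 with samples of one code number averaged, 1 with outlier local backgrounds kept, and 1 to 3 with 1 sample left out. Omitting that pair of WT-p samples and keeping the outlier backgrounds were chosen after seeing the data. With the outlier backgrounds kept, 2 differences changed sign, Slc18a2 in TO-p against WT-p (0.03) and Ddc in TO-d against TO-p (-0.22), both not called there, and 7 others lost their call: Ddc in TO-p against WT-p (-0.27), in WT-d against WT-p (-0.50) and in the TO response against that of OT (-1.31, adjusted p = 0.079) and of WT (0.28), Slc18a2 in TO-d against TO-p (0.11), Pnmt in TO-d against WT-d (-0.38) and Gch1 in OT-d against WT-d (0.18). The mean of all probes reversed Gch1 in WT-d against WT-p (0.33). Of 960 differences with 1 sample left out, 22 lost and 13 gained a call and none reversed. A replicate block in place of the dye term changed 1 call of 96, Slc18a2 in TO-p against WT-p (-0.27, adjusted p = 0.0531), and so left 5 of 6 members called there. Same-numbered samples of different groups had a median correlation of -0.022 in their deviations (60 pairs). Single pairs ran from -0.299 to 0.311, with 15 over 0.1. Relative to the values given, the median of all genes in WT-d against WT-p (0.06) was 0.19 with the processed signals and -0.07 with loess alone. Signal over background limits Pnmt, Slc18a1 in OT-p and WT-p, Rnls in WT-d and TO-d, and the second Ddc probe, and leaves Slc6a2 without a value.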
